A study of Bos taurus with 10 samples.

Results

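The insulin-like growth factor (IGF) system was described in the corpus luteum of cattle (Bos taurus), the gland that forms from the ovulated follicle and secretes progesterone. Its 10 members were taken by gene symbol: the ligands IGF1 and IGF2, the receptors IGF1R and IGF2R, and the binding proteins IGFBP1 to IGFBP6. Each of the 10 had 1 probeset that the platform annotation pairs with that symbol alone, among 18010 genes measured in this way. The rule uses names alone and no measured value. The tissue was taken on day 7 of the cycle from cows given selenium in different forms, which the labels name MIX (5 samples) and ISe (5 samples). Both groups received selenium, so no group without a supplement was compared, and the sources used here give neither breed nor age. Each sample was hybridised to 1 single-colour whole-transcript array, and having 5 arrays per group limits the precision. No label says that the samples are from separate cows, so the p-values reflect the spread among these samples, which may in part be technical.

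IGF1 and IGF2 are small secreted hormones related to insulin that act on cell survival, growth and hormone output. Both signal through IGF1R, a tyrosine kinase that feeds the phosphoinositide 3-kinase and AKT pathway and the RAS and MAP kinase pathway, whereas IGF2R binds IGF2 and carries it to lysosomes without such signalling. The binding proteins hold the ligands in the blood and between cells, and they limit or prolong their access to the receptor. In the bovine corpus luteum the ligands are made locally, and IGF1 is known to increase progesterone output of luteal cells in culture.

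The deposited values are log2 signals, with array medians between 5.99 and 6.04. Correlations between arrays were 0.986 to 0.993 over the 19145 probesets with a gene symbol. No 2 arrays held identical values. The luteal label was borne out by high signals of luteal markers. On all 10 arrays CYP11A1 lay between 12.94 and 13.06, HSD3B1 between 13.30 and 13.38 and oxytocin (OXT) between 12.88 and 13.00. Of the 10 luteal markers measured, 0 had a mean below the median probeset level. Others of them varied more, with INSL3 at 7.39 to 11.35 and PRLR at 6.12 to 8.67. Of 7 granulosa and follicle markers, 4 lay below the median probeset level, FSHR among them at 4.69 to 5.62, while GJA1 (10.56 to 11.40), CYP19A1 (6.79 to 7.58) and INHBA (6.68 to 7.50) lay above it. On the first principal component of these 19145 probesets (18.1% of variance) MIX 8 was far from the rest, at 32.80 against -9.47 to 1.27 for the other 9 arrays. On the second (14.5% of variance) MIX 1 was, at 26.59 against -11.81 to 6.07. Several results are therefore also given without 1 or both of these arrays.

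No member of the IGF system differed between MIX and ISe past the threshold. IGF1 had the largest difference of the 10, 1.45-fold higher on average in MIX (95% interval 1.02 to 2.07), but with overlapping groups and an adjusted p of 0.941. Over both groups together, IGFBP5, IGFBP3 and IGF1 had within-group SDs that at most 2.99% of probesets reached. The other 7 members had smaller ones, and for 5 of them the interval of the fold change lay inside 0.8 to 1.25.

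Of the ligands, IGF1, the main growth factor induced by growth hormone, had log2 signals of 7.84, 7.81, 7.32, 7.03 and 7.41 in MIX 1, 8, 9, 10 and 11. In ISe 2, 3, 5, 6 and 7 it had 6.69, 7.66, 6.89, 7.13 and 6.35. Only MIX 1 and MIX 8 lay above every ISe sample, while ISe 3 lay above the other 3 MIX samples, so the groups overlapped. The mean of IGF1 was 7.48 ± 0.35 in the MIX samples and 6.95 ± 0.49 in the ISe samples (SD, n = 5 each), a log2 difference of 0.54 ± 0.23 (SE). The unadjusted p of the limma fit was 0.0425, and the adjusted p over all 19145 probesets was 0.941. An exact two-sided permutation test of the same difference gave p = 0.0873, where 5 against 5 arrays allow a smallest p of 0.00794. Without MIX 1 and MIX 8 together the log2 difference was 0.31, with an unadjusted limma p of 0.265. Leaving out single arrays, it ran from 0.39 without ISe 7 to 0.72 without ISe 3, and the unadjusted p was under 0.05 in 4 of the 10 such fits.

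IGF2, the ligand expressed from the paternal allele in most tissues of mammals, had log2 signals of 10.78, 10.52, 10.35, 10.93 and 10.55 in MIX 1, 8, 9, 10 and 11. In ISe 2, 3, 5, 6 and 7 it had 10.87, 10.33, 10.61, 10.57 and 10.36. The highest sample was a MIX sample and the lowest an ISe sample, with the remainder interleaved. Its fold change was 1.06 (95% interval 0.87 to 1.29), with an adjusted limma p of 0.966.

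**Figure D1:**
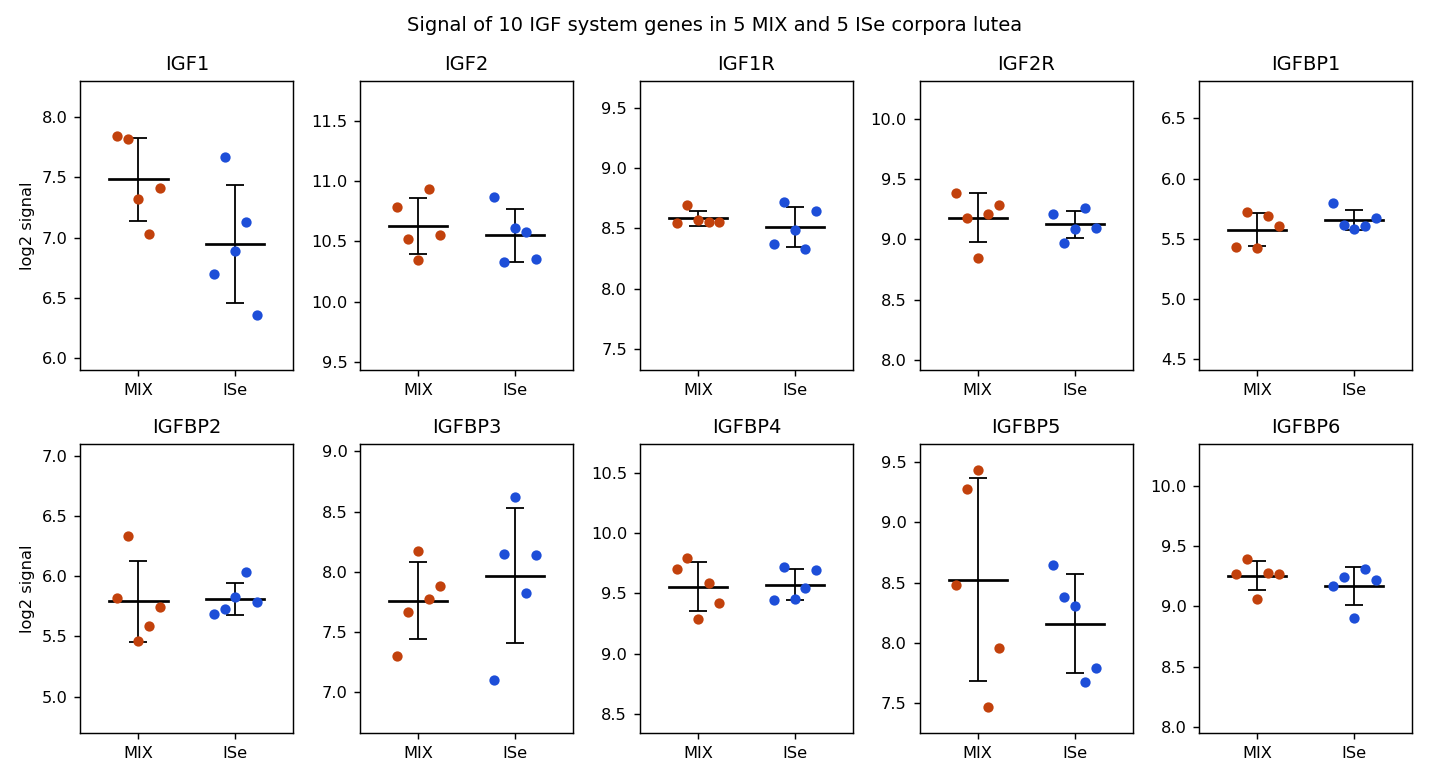
Log2 signal (y axis, every panel spanning the same width of the scale) of the 10 members in 5 MIX and 5 ISe corpora lutea, with points for samples, long lines for group means and bars for SD. The groups overlap in every panel, and the samples lie widest apart for IGFBP5, IGFBP3 and IGF1.

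Over the 10 samples the receptor IGF1R spanned 0.39 log2 and the receptor IGF2R 0.54 log2. IGF1R, the signalling receptor of both ligands, ran from 8.54 to 8.69 over the MIX samples and from 8.33 to 8.72 over the ISe samples. The MIX samples lay inside the range of the ISe samples. The fold change was 1.05 (95% interval 0.93 to 1.19). IGF2R, which is also the cation-independent mannose 6-phosphate receptor and sorts lysosomal enzymes, ran from 8.85 to 9.38 over MIX and from 8.97 to 9.26 over ISe. Its lowest value, in MIX 9, and its highest, in MIX 1, both fell in the MIX group. The fold change was 1.04 (95% interval 0.89 to 1.21), and the log2 difference of 0.05 became -0.01 without MIX 1 and MIX 8 together. Adjusted limma p-values were 0.949 for IGF1R and 0.972 for IGF2R.

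Among the binding proteins IGFBP5, which binds extracellular matrix as well as the ligands, had the widest values. Its log2 signals were 8.48, 9.28, 9.43, 7.47 and 7.96 in MIX 1, 8, 9, 10 and 11. In ISe 2, 3, 5, 6 and 7 they were 8.65, 8.38, 8.31, 7.67 and 7.79. MIX 8 and MIX 9 lay above every ISe sample and MIX 10 lay below every one. The lowest and the highest of the 10 samples, MIX 10 and MIX 9, were 3.91-fold apart. The mean was 8.52 ± 0.84 in the MIX samples and 8.16 ± 0.41 in the ISe samples (SD, n = 5 each). This is a fold change of 1.29 with a 95% interval of 0.74 to 2.23 (limma, adjusted p = 0.945). The log2 difference of 0.36 was 0.14 without MIX 9, 0.18 without MIX 8 and 0.63 without MIX 10, so its size depended on which of these arrays was present.

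IGFBP3, the main carrier of the ligands in blood, had log2 signals of 7.31, 7.67, 8.18, 7.78 and 7.89 in MIX 1, 8, 9, 10 and 11. In ISe 2, 3, 5, 6 and 7 it had 7.11, 8.15, 8.62, 7.82 and 8.14. Both ends of the range were ISe samples, ISe 2 at the bottom and ISe 5 at the top, 2.86-fold apart. The fold change was 0.87 (95% interval 0.59 to 1.27; limma, adjusted p = 0.952). The log2 difference of -0.20 was -0.42 without ISe 2, -0.09 without MIX 1, -0.04 without ISe 5 and -0.31 without MIX 9.

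IGFBP2, another binding protein of blood and tissue fluid, had log2 signals of 5.82, 6.33, 5.46, 5.59 and 5.75 in MIX 1, 8, 9, 10 and 11. In ISe 2, 3, 5, 6 and 7 it had 5.69, 5.73, 5.82, 6.03 and 5.79. MIX 8 was the highest and MIX 9 the lowest of the 10 samples. The fold change was 0.98 (95% interval 0.79 to 1.23), and the log2 difference of -0.02 was -0.21 without MIX 1 and MIX 8 together (limma, adjusted p = 0.944). IGFBP1, known as a binding protein of liver and decidua that falls with insulin, ran from 5.43 to 5.73 over MIX and from 5.58 to 5.79 over ISe, with a fold change of 0.95 (95% interval 0.84 to 1.07). The signals of IGFBP1 and IGFBP2 lay near or below the array medians, and the narrow interval of a dim probeset bounds a change in transcript less firmly.

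IGFBP4, an inhibitory binding protein that the protease PAPPA cleaves, ran from 9.29 to 9.79 over MIX and from 9.45 to 9.72 over ISe. MIX 8 was again the highest sample and MIX 9 the lowest. Its fold change was 0.99 (95% interval 0.85 to 1.16). IGFBP6, which prefers IGF2 to IGF1, ran from 9.06 to 9.40 over MIX and from 8.90 to 9.31 over ISe, with a fold change of 1.06 (95% interval 0.93 to 1.21). MIX 8 was its highest sample and ISe 5 its lowest.

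Over the 10 members, 6 had a higher and 4 a lower mean in MIX, with a median log2 difference of 0.06 against 0.001 over all 19145 probesets. Limma called 0 of the 10 at an adjusted p under 0.05, as it called 0% of all probesets, with adjusted p-values of 0.941 to 0.998 for the members. At an unadjusted p under 0.05 there was 1 member, IGF1, where 4.79% of all probesets passed. Groups that did not overlap were seen in 0 members and in 0.642% of all probesets (0.366% higher and 0.277% lower in MIX). Exact permutation p-values of the members ran from 0.0873 to 0.905. The interval of the fold change lay inside 0.8 to 1.25 for IGF1R, IGF2R, IGFBP1, IGFBP4 and IGFBP6. For the other 5 members the interval passed these bounds, on the upper side only for IGF1 and IGF2, on the lower side only for IGFBP2, and on both sides for IGFBP3 and IGFBP5.

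**Figure D2:**
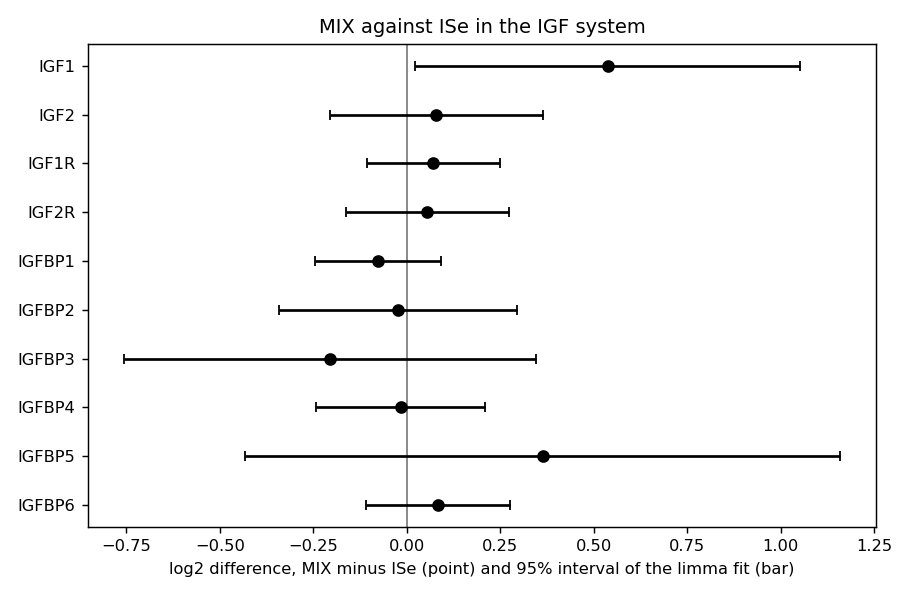
Log2 difference between MIX and ISe (x axis, MIX minus ISe) for each member, with points for the estimate and bars for its 95% interval in the limma fit of all probesets. The interval of IGF1 runs from 0.02 to 1.05 before adjustment for the number of probesets, and the other 9 intervals include 0.

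The spread between corpora lutea given the same supplement set IGFBP5, IGFBP3 and IGF1 apart from the other members. The SD within groups was 0.66 log2 for IGFBP5, 0.46 for IGFBP3 and 0.43 for IGF1, against a median of 0.15 over all probesets tested. Only 0.559% of the 19145 probesets had a within-group SD at least as large as that of IGFBP5, 2.29% as large as that of IGFBP3 and 2.99% as large as that of IGF1. Among probesets with a mean within 0.5 log2 of the member these shares were 0.536%, 1.86% and 2.25%. With single arrays left out the share was 0.439% to 1.14% for IGFBP5 (highest without MIX 10), 1.70% to 8.17% for IGFBP3 (highest without ISe 2) and 2.47% to 7.31% for IGF1 (highest without ISe 3). Without MIX 1 and MIX 8 together the shares were 0.512%, 1.81% and 2.95%. By group, the SD of IGFBP2 in MIX, 0.33, was close to those of IGF1 (0.35) and IGFBP3 (0.32) there, while in ISe it was 0.13 against 0.49 for IGF1 and 0.56 for IGFBP3. Over both groups 16.8% of probesets were at least as variable as IGFBP2, and 48.3% without MIX 8. For IGF2 the share was 23.1%, and the receptors, IGFBP4, IGFBP6 and IGFBP1 lay between 41.1% (IGFBP4) and 68.6% (IGFBP1). Against probesets of similar level several of these members stood higher, with shares of 9.26% for IGF2, 18.7% for IGFBP4, 21.2% for IGF2R, 30.7% for IGFBP6 and 40.1% for IGF1R, and IGFBP1 stood lower at 81.5%. IGF2R varied less without MIX 9, at 72.9% of all probesets. The shares are descriptions of these 10 arrays and carry no test.

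**Figure D3:**
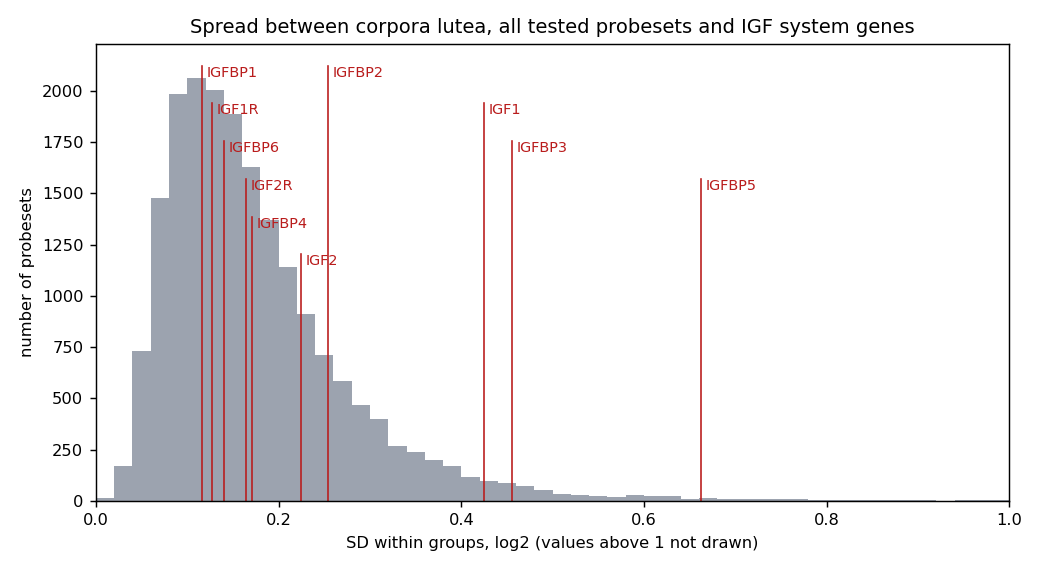
Histogram of the SD within groups (x axis, log2) over all probesets tested (y axis, number of probesets), with a red line for each member, whose heights only separate the names. IGFBP5 at 0.66, IGFBP3 at 0.46 and IGF1 at 0.43 lie in the upper tail, while 5 members lie close to the median of 0.15.

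The variable members did not peak in the same samples. IGF1 was highest in MIX 1 and lowest in ISe 7, IGFBP3 highest in ISe 5 and lowest in ISe 2, and IGFBP5 highest in MIX 9 and lowest in MIX 10. MIX 8 held the highest value of 3 members (IGFBP2, IGFBP4 and IGFBP6). MIX 9 held the lowest of 4 (IGF2R, IGFBP1, IGFBP2 and IGFBP4) together with the highest IGFBP5. MIX 8, which held the second highest IGFBP5, and MIX 9 thus lay at opposite ends for IGFBP2 and IGFBP4.

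**Figure D4:**
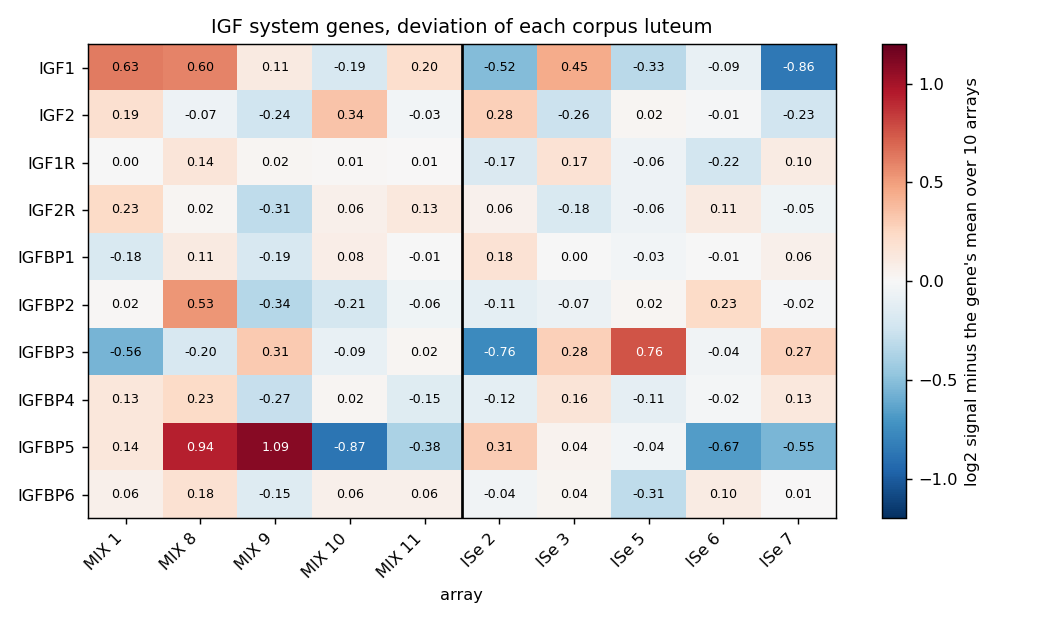
Deviation of each array from the member's mean over the 10 arrays (colour and printed value, log2), with members in rows and arrays in columns, MIX left of the black line and ISe right of it. The darkest cells belong to IGFBP5, IGFBP3 and IGF1 and lie in different columns, up to 1.09 for IGFBP5 in MIX 9.

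No pair of members varied together past the adjusted threshold. Over the 45 pairs, 25 correlations across the 10 arrays were positive and 20 negative, 1 pair had an unadjusted permutation p under 0.05 by Pearson's r and 2 pairs by Spearman's rho, and 0 pairs passed adjustment over the 45 by either. The pair by r was IGF2 and its clearance receptor IGF2R, with r = 0.67 (permutation p = 0.0335, adjusted p = 0.510) and rho = 0.62 (permutation p = 0.0609, adjusted p = 0.638). The r was 0.83 without MIX 10 and ISe 2, the samples farthest from the median of IGF2, and 0.66 for deviations from the group means. IGFBP3 had negative correlations with both, r = -0.63 against IGF2R (permutation p = 0.0523, adjusted p = 0.510) and rho = -0.68 (permutation p = 0.0354, adjusted p = 0.638), and r = -0.66 without MIX 9 and ISe 3. The second pair by rho was IGF2 and IGF1R, with rho = -0.68 (permutation p = 0.0346, adjusted p = 0.638) and r = -0.52 (permutation p = 0.126, adjusted p = 0.685), and r = -0.50 without MIX 10 and ISe 2. Against IGF2, IGFBP3 had r = -0.62 (permutation p = 0.0550, adjusted p = 0.510) and rho = -0.59 (permutation p = 0.0801, adjusted p = 0.638), and r = -0.51 without MIX 10 and ISe 2.

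IGFBP4 and IGFBP6 had r = 0.62 (permutation p = 0.05055, adjusted p = 0.510) and rho = 0.49 (permutation p = 0.156, adjusted p = 0.638). For this pair r was 0.38 without MIX 8 and MIX 9, and 0.68 for deviations from the group means (exact permutation p within groups 0.02375, adjusted p = 0.477). IGFBP2 and IGFBP4 had r = 0.61 (permutation p = 0.0567, adjusted p = 0.510) and rho = 0.49 (permutation p = 0.153, adjusted p = 0.638). The relation rested on MIX 8 and MIX 9, without which r was -0.01. In the RefSeq annotation of assembly ARS-UCD2.0, IGFBP1 and IGFBP3 are neighbours, as are IGFBP2 and IGFBP5. Neither neighbouring pair passed the test. For IGFBP1 and IGFBP3, r was -0.28 (permutation p = 0.435, adjusted p = 0.745), rho was -0.53 (permutation p = 0.115, adjusted p = 0.638), and r was 0.26 without MIX 9 and ISe 2. For IGFBP2 and IGFBP5, r was 0.11 (permutation p = 0.766, adjusted p = 0.875), rho was -0.09 (permutation p = 0.809, adjusted p = 0.934), and r was -0.06 without MIX 8 and MIX 9.

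Of the cell type markers, those of macrophages had the closest correlation with IGF1, which did not pass adjustment. Their means were higher in MIX for all 15 measured of 16 listed, and the median log2 difference was 0.50. Over all 19145 probesets, 9657 had a higher mean in MIX. The mean of the list, as a deviation from each gene's average, ran from 0.10 to 0.34 over MIX samples and from -0.46 to 0.03 over ISe samples, with 4 of the 15 genes below the median probeset level. IGF1 and this mean had r = 0.81 (permutation p = 0.00535) and rho = 0.75 (permutation p = 0.0179), with adjusted p-values of 0.321 and 0.800 over the 120 pairs of a member and a marker list. The r was 0.73 without MIX 1 and ISe 7 and 0.72 for deviations from the group means (exact permutation p within groups 0.0414, adjusted p = 0.766). Without MIX 8 the r was 0.76. By group it was unlike, at 0.32 over the MIX samples and 0.88 over the ISe samples. MIX 10 departed from the relation, with the second highest macrophage mean (0.27) and the lowest IGF1 of the MIX group. The part of these markers in the IGF1 difference was not tested, and in bulk tissue more cells of a type cannot be told apart from more RNA per cell.

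**Figure D5:**
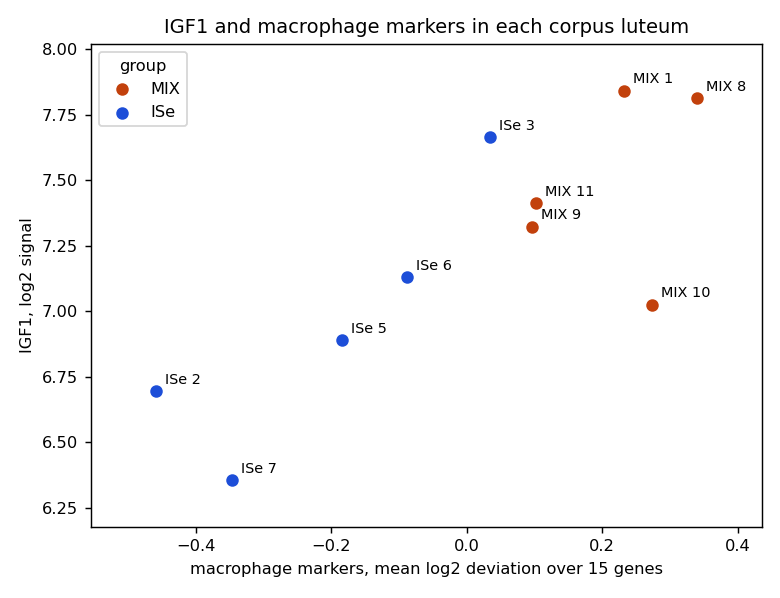
IGF1 log2 signal (y axis) against the mean deviation of 15 macrophage markers (x axis, log2), with a labelled point for each of the 5 MIX and 5 ISe arrays. All MIX samples lie right of all ISe samples, and MIX 10 has the lowest IGF1 of the MIX samples at 7.03.

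IGFBP5 had its closest correlation with neutrophil markers, at r = -0.83 (permutation p = 0.00168, adjusted p = 0.202) and rho = -0.81 (permutation p = 0.00750, adjusted p = 0.800), and r = -0.88 without MIX 8 and MIX 9. After quantile normalisation the adjusted p was 0.042, and without MIX 8 it was 0.0444. All 8 neutrophil markers measured lay below the median probeset level, and their mean spanned only -0.17 to 0.13 over MIX samples and -0.04 to 0.07 over ISe samples. Of the 120 pairs, 4 had an unadjusted permutation p under 0.05 by r and 5 by rho, and 0 passed the adjusted threshold by either. Besides these pairs they were IGF1 with granulosa and follicle markers by both measures, IGFBP3 with markers of B and plasma cells by r, and IGF1R with T and NK cell markers and IGFBP3 with blood markers by rho. Markers of pericytes and smooth muscle, endothelial cells and fibroblasts gave no pair at an unadjusted p under 0.05 by r or rho over all 10 arrays. Some of these pairs fell under 0.05 with arrays left out, after quantile normalisation or for deviations from the group means. None of them passed adjustment. In the order named, the means of these lists differed between MIX and ISe by 0.03, 0.16 and -0.05 log2. All 13 endothelial markers had a higher mean in MIX, where 9657 of all 19145 probesets did.

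The rest of the pathway held no gene past the adjusted threshold. Of 128 symbols listed around the IGF system, older symbols included, 113 genes were measured, with 59 higher and 54 lower means in MIX and a median log2 difference of 0.001. At an unadjusted limma p under 0.05 there were 4 genes with a higher mean (ITGB3, STAT5B, INPP5D and EIF4EBP2) and 2 with a lower mean (EIF4EBP1 and IGF2BP1), 5.31% of the 113 against 4.79% of all probesets (2.67% higher and 2.12% lower). A share this close to the background is no result about the pathway, and the count was 3 without MIX 1, without MIX 10 or without ISe 7.

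Carriers and proteases that set the amount of free ligand (15 genes) had a median difference of 0.002, ran from -0.12 to 0.22, and held 0 genes at an unadjusted p under 0.05. HTRA3, a secreted serine protease, was at 0.22 ± 0.18 (log2 difference ± SE) and PLAU, the urokinase plasminogen activator, at 0.13 ± 0.16. IGFBPL1, a relative of the binding proteins, was at 0.10 ± 0.10, with group means of 5.66 in MIX and 5.56 in ISe that lay below the array medians. PAPPA, the protease of IGFBP4, had means of 7.78 ± 0.19 in the MIX samples and 7.78 ± 0.17 in the ISe samples (SD, n = 5 each). The CCN family of matrix proteins, once classed with the binding proteins, had 5 genes and a median of -0.14. CCN1 was at -0.31 ± 0.24, CCN2, the connective tissue growth factor, at -0.26 ± 0.20 and CCN4 at 0.19 ± 0.14.

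At the level of receptors, 11 genes of the insulin receptor and of co-receptors had a median of 0.01. ITGB3, the integrin beta 3 chain, had means of 6.22 ± 0.17 in the MIX samples and 5.85 ± 0.15 in the ISe samples (SD, n = 5 each), a fold change of 1.29 with an adjusted limma p of 0.941. Both means of ITGB3 lay below the median probeset level of 6.40, and the ISe mean also below the array medians. ITGAV, the partner chain of ITGB3, was at -0.21 ± 0.10 (log2 difference ± SE), the opposite sign. M6PR, the smaller mannose 6-phosphate receptor, was at 0.09 ± 0.06. INSR, the insulin receptor, was at -0.05 ± 0.12. In the growth hormone axis, which drives IGF1 in liver, 11 genes had a median of -0.01. STAT5B, a transcription factor of growth hormone and prolactin signalling, was at 0.21 ± 0.09 (limma, adjusted p = 0.941). PRLR, the prolactin receptor, was at 0.74 ± 0.43 and SOCS1, a feedback inhibitor, at -0.18 ± 0.12. SOCS1 had group means of 5.48 in MIX and 5.66 in ISe, below the array medians. GHR, the growth hormone receptor, had means of 8.89 ± 0.12 in the MIX samples and 8.90 ± 0.17 in the ISe samples (SD).

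Downstream, 15 receptor adaptors had a median of -0.03, led by the adaptor IRS4 at -0.13 ± 0.07 and GRB14, an inhibitor of insulin receptor signalling, at -0.18 ± 0.10 (log2 difference ± SE), with the scaffold protein RACK1 at -0.06 ± 0.05. The group means of IRS4, 4.68 in MIX and 4.82 in ISe, lay below the array medians. In the phosphoinositide 3-kinase, AKT and MTOR group (31 genes, median -0.01), INPP5D, a lipid phosphatase of blood cells that opposes the kinase, had means of 6.99 ± 0.06 in the MIX samples and 6.73 ± 0.06 in the ISe samples (SD, n = 5 each). The groups did not overlap, the fold change was 1.19 and the adjusted limma p was 0.926. Over these samples the macrophage markers averaged 0.42 log2 more in MIX, and the T and NK cell markers 0.26 log2 more. Of the T and NK cell markers 9 of 12 had a higher mean, against 9657 of all 19145 probesets, and 10 of 12 lay below the median probeset level. The part of either cell type in the INPP5D difference was not tested. The translation inhibitors EIF4EBP2 and EIF4EBP1 had opposite signs, at 0.12 ± 0.05 and -0.19 ± 0.08 (log2 difference ± SE), and the groups of EIF4EBP2 did not overlap either. These 2 of 113 genes are 1.77% of the pathway, against 0.642% of all probesets.

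The RAS and MAP kinase genes (14, median 0.003) held 0 at an unadjusted p under 0.05, with RPS6KA1, a kinase below ERK, at -0.14 ± 0.13, and the RAF kinases BRAF at 0.08 ± 0.07 and ARAF at -0.10 ± 0.10 (log2 difference ± SE). Binders of IGF2 messenger RNA, imprinted genes and the transcription regulators HMGA2 and PLAG1 (11 genes together) had a median of 0.04. IGF2BP1 was at -0.27 ± 0.11 (limma, adjusted p = 0.941), with group means of 4.62 in MIX and 4.89 in ISe that lay below the array medians. DLK1, a paternally expressed imprinted gene, was at -0.21 ± 0.11 and CDKN1C, a growth-restraining imprinted gene, at -0.29 ± 0.23. H19, the noncoding RNA expressed from the allele opposite to IGF2, had means of 11.78 ± 0.14 in the MIX samples and 11.78 ± 0.13 in the ISe samples (SD, n = 5 each).

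The genes whose pattern was most like that of a member were sought by the correlation of deviations from the group means over the 10 arrays. For IGF1 they were ZNF8 at 0.95, STEEP1 at 0.91 and XYLT2 at 0.91, and TSPAN5 was the most opposite at -0.96. For IGFBP5 they were TMEM128 at 0.92, TMEM86A at 0.91 and CIAO1 at 0.89, and for IGFBP3 SLC22A5 at 0.95, ATP2A2 at 0.94 and PA2G4 at 0.92. The closest gene was TSPAN18 for IGF2, BAG6 for IGF1R, NUMA1 for IGF2R, NUBP1 for IGFBP1, RNF187 for IGFBP2, XDH for IGFBP4 and SLX4 for IGFBP6, with correlations of 0.90 to 0.96. These are the extremes of about 8773 genes compared over only 10 arrays. Genes with a mean below the median probeset level or a placeholder symbol were left out of the search. With group means kept, r was only 0.57 for XYLT2 with IGF1, 0.57 for TMEM128 with IGFBP5 and 0.60 for TSPAN18 with IGF2. For ZNF8 with IGF1 it was 0.97. All these correlations are descriptions, with no test.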

How the data were processed

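Total RNA of 10 corpora lutea was measured on Affymetrix arrays labelled with the WT Terminal Labeling Kit, per the labels' protocols. The deposited table holds log2 signals per probeset, taken as log2 from their range of 0.54 to 14.17. Per the submitters' processing notes the tools were GCOS 1.2 and Partek, without a stated role. How signals were background-corrected, summarised and normalised is not given in the sources used here. Values were used as deposited. Groups were read from sample titles. No batch, scan date or pairing is named there.

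Of 26773 probesets, 18457 had 1 gene symbol, 688 several and 7628 none, and the 19145 with any symbol were tested. Where a gene had several probesets, the one with the highest mean was kept. MIX was compared with ISe by limma 3.58.1 (lmFit and eBayes, R 4.3.3). Tests were two-sided, and p-values were adjusted by Benjamini-Hochberg over the 19145, with a threshold of 0.05. The SE of a log2 difference comes from that fit. Single members were also tested by exact permutation. Data were simulated for this comparison with 19145 probesets, which held 50 altered probesets per size. Limma called 64% of those set to 0.5 log2, 96% at 1, 92% at -1 and 100% at 2, and made 12 false calls in all. The altered probesets were drawn from all probesets tested, whose median SE in the main fit was 0.093 log2. IGF1, IGFBP3 and IGFBP5 had SEs of 0.23, 0.25 and 0.36, so these shares do not hold for them. Nor can these shares be carried over to the other members. An adjusted p under 0.05 is easier to reach where many probesets are altered, as in the simulated data. In the deposited data limma called 0 probesets, with a smallest adjusted p of 0.809. Correlations were tested with 100000 permutations, and deviations from group means by exact permutation within groups.

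Named were all members, the 3 genes of lowest p from each pathway list, and the genes most like a member. PAPPA, INSR, GHR and H19 were chosen after their values were seen, as were the marker genes CYP11A1, HSD3B1, OXT, INSL3, PRLR, FSHR, GJA1, CYP19A1 and INHBA. PDK1, HMGA2 and PLAG1 are named only to describe their lists. Members and lists were chosen with earlier results of these data known. Alternatives were other normalisations, probeset filters, moderation, array weights, averaging of probesets and leaving out arrays. Those leaving out MIX 1 and MIX 8, and all for the spread, were chosen after seeing the data. Python 3.11.15 with matplotlib 3.10.9 made the figures.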

Additional observations from a re-analysis of the deposited data

Results flagged for a closer look

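IGF1R in MIX 8, at 8.69, lay apart from the other 4 MIX samples, which ran from 8.54 to 8.57. The value lies inside the ISe range of 8.33 to 8.72, and without MIX 8 the log2 difference was 0.04 in place of 0.07. Chance marks about 1 in 20 groups in this way, and 20 groups were examined.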

How the results depend on the processing

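No member passed the adjusted threshold under any alternative, and the limma adjusted p of IGF1 ran from 0.841 to 0.987 over them. The number of probesets called over the whole table was 0, and 0 to 1 with single arrays left out, 1 without MIX 8. IGF2R changed sign to -0.0125 without MIX 1 and MIX 8 together. In that fit the log2 difference of IGFBP3 was -0.0212 in place of -0.205, and that of IGFBP5 was 0.128 in place of 0.364. For IGFBP4 it was -0.142 in place of -0.0158. With single arrays left out, log2 differences of IGFBP2 ran from -0.158 to 0.0596 and of IGFBP4 from -0.0747 to 0.0506, while those of the other 8 members kept their sign. IGFBP1 and IGFBP2 were not among the brighter 50% of probesets and have no value there. The 6 pathway genes at an unadjusted p under 0.05 became 3 to 7 with single arrays left out (3 without MIX 1, ISe 7 or MIX 10), and 6 without MIX 1 and MIX 8, then 2 higher and 4 lower in place of 4 and 2. Pairs of a member and a marker list past the adjusted threshold numbered 0, and 1 (IGFBP5 and neutrophil markers) after quantile normalisation or without MIX 8, and pairs among members 0 throughout. The unadjusted p of IGF1 was 0.0807 without moderation and 0.0788 with array quality weights. No paired analysis was possible because the groups share no replicate number. With 5 arrays per group, the data leave a fold change of IGFBP5 between 0.74 and 2.23 unresolved.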
